A study of Mus musculus with 6 samples.

Results

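The 9 genes described here are Cyp2s1, Eya2, Adap1, Myo1f, Glrx, Itpr1, Adam19, Man2a2 and Tmprss13. They were chosen by measured values of these same arrays, as genes lower in cells labelled Irf4 KO than in WT cells. That choice covered KO cells from mice given blocking antibodies and from mice given rat IgG. The differences of these genes from WT are therefore given as a description, with no test. They are 9 of 22565 genes that could be named on the array, and 14 probes report them: 1 probe each for 6 genes, 2 for Eya2, and 3 each for Itpr1 and Man2a2.

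Gene expression was measured on 6 single-colour arrays, 2 for each of 3 groups. All 3 groups were CD4+ T cells from TEa mice on a C57BL/6 background, which carry a transgenic T cell receptor (Vα2+Vβ6+) and the CD45.2 allele. The cells were transferred on day -1 into B6.SJL mice carrying CD45.1, the recipients were given a Balb/c heart on day 0, and the transferred cells were sorted from the spleen on day 6. The first group was Irf4-/- TEa cells from recipients injected intraperitoneally on days 0, 3 and 5 with 200 µg of an antibody to PD-L1 and 200 µg of an antibody to CTLA-4 (clone 9D9), called blockade here. The second was Irf4-/- TEa cells from recipients given 400 µg of rat IgG on the same days, called KO IgG. The third was WT TEa cells, labelled as treated with rat IgG at no stated dose. The labels record 2 independent experiments per group; they give neither the age and sex of the mice nor whether cells of several recipients were pooled. The recipients kept their own T cells, and the arrays bear only on the sorted cells. Array 2 of each group is the one labelled as the repeat.

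IRF4 is a transcription factor of the interferon regulatory factor family that T cell receptor signalling induces. It binds DNA weakly alone, and in T cells it is known mainly for binding with BATF and JUN proteins at sites that join an AP-1 motif to an IRF motif. T cells without it are known to be activated and to divide at first, but to form effector cells poorly. PD-L1 and CTLA-4 belong to inhibitory pathways that restrain T cells, and antibodies that block them are used to restore T cell responses. The 9 genes have no pathway in common: they encode a calcium channel, a regulator of small GTPases, a motor protein, a transcriptional coactivator, a P450 enzyme, a redox enzyme, a Golgi mannosidase and 2 membrane proteases.

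The targeted gene did not follow its label. The brighter of the 2 Irf4 probes read 2071 and 1703 on blockade arrays 1 and 2, 2128 and 3073 on KO IgG arrays 1 and 2, and 673 and 1068 on WT arrays 1 and 2 (processed intensity, a linear scale with no unit). The dimmer probe read 218 and 163 in blockade cells, 226 and 221 in KO IgG cells, and 73.6 and 80.3 in WT cells. Both probes were thus brighter in cells labelled Irf4 KO than in WT cells, and no group labelled KO overlapped WT. For the brighter probe the log2 difference was 1.40 ± 0.13 (SE) for blockade minus WT and 1.44 ± 0.13 for KO IgG minus WT (limma, adjusted p = 0.0211 and 0.0182). The first call was lost in 8 of 19 other settings, and the second was lost in 6 of 19 and reversed in 1 more. Whether these probes lie in the deleted part of the gene was not tested, and a probe outside it would check nothing. Whether samples were exchanged between labels was not tested either, and the values below follow the labels. Every direction below is for cells labelled Irf4 KO.

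The arrays also differed as a whole. The share of probes called well above background by the scanner software was 34.8% to 39.96% on the blockade arrays, 65.8% to 75.2% on the KO IgG arrays and 37.6% to 40.8% on the WT arrays. Of 29707 weak probes, those well above background on no blockade and no WT array, the median intensity was 3.47 and 4.46 in blockade cells, 15.3 and 26.6 in KO IgG cells, and 4.60 and 4.25 in WT cells. The summed intensity of 8 T cell markers, all well above background on all 6 arrays, was 253718 and 200047 in blockade cells, 215222 and 342037 in KO IgG cells, and 278313 and 342921 in WT cells. Sums for B cell, myeloid and erythroid markers were highest on KO IgG array 2. The 7 B cell markers summed to 366 and 375 in blockade cells, 938 and 4769 in KO IgG cells, and 199 and 207 in WT cells. The 8 myeloid markers summed to 4298 and 7025 in blockade cells, 8225 and 66058 in KO IgG cells, and 4257 and 5120 in WT cells. Most of the sum on KO IgG array 2 came from S100a8 and S100a9, at 15377 and 44805. Csf1r and Itgam lay between the 2 WT arrays there, and Lyz2, Cd14, Adgre1 and Fcer1g lay above both. These markers are named after their values were seen. The 3 erythroid markers with a probe summed to 11186 and 6882 in blockade cells, 1425 and 53984 in KO IgG cells, and 166 and 739 in WT cells. CD8 T cell and NK markers summed to 689 and 1052 in blockade cells, 882 and 1289 in KO IgG cells, and 785 and 932 in WT cells. The part of these differences in the values below was not tested. To lessen the weight of weak probes, levels are given both as deposited and after quantile normalisation among the 10225 probes whose log2 intensity averaged 8 or more, called bright probes, so that a normalised difference is relative to the other bright probes.

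Promoter sequences were in the RefSeq table (GRCm38.p6) for 5 of the 9 genes, at 8 transcription starts. They are shown because IRF4 acts with AP-1 proteins, except for a second Glrx start 1 base from the first. Each line gives the 140 bases that end just before a start, 5′ to 3′ on the strand of the gene, with matches to the AP-1 motif TGANTCA in capitals.
Glrx, chr13:75839745-75839884, plus strand: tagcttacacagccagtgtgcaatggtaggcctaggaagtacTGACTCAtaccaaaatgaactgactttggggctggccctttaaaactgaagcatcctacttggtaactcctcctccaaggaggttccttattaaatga
Adam19, chr11:46055844-46055983, plus strand: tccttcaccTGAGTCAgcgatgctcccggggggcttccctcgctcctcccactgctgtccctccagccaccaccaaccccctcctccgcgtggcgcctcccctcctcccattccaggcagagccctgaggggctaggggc
Adam19, chr11:46054362-46054501, plus strand: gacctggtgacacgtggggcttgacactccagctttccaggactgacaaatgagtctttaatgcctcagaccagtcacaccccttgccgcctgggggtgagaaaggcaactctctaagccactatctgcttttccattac
Adam19, chr11:46127764-46127903, plus strand: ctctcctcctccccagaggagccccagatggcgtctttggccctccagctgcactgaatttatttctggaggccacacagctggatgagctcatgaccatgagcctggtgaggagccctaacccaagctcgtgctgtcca
Cyp2s1, chr7:25816526-25816665, minus strand: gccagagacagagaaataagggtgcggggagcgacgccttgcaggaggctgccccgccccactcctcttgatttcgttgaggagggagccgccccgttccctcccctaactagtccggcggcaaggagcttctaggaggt
Myo1f, chr17:33555567-33555706, plus strand: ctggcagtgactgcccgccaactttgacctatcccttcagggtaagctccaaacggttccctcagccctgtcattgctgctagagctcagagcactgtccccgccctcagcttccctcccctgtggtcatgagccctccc
Adap1, chr5:139325465-139325604, minus strand: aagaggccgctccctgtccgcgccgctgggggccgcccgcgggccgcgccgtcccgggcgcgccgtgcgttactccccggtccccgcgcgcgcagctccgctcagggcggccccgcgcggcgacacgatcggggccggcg

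The 250 bases before each start were searched on both strands. An AP-1 match lay before 3 of the 8 starts: it began 131 bases before 1 of 3 Adam19 starts, and 98 and 99 bases before 2 Glrx starts that differ by a base and share the site. Among all 32851 promoters in the table, 6.75% held that motif. The AP-1-IRF composite was searched in 1 spacing only, TGANTCANNNNGAAA. That form, the ETS-IRF composite GGAANNGAAA and the interferon response core GAAANNGAAA had no match before any of the 8 starts. They were present in 0.0974%, 2.3% and 2.98% of all promoters, so 8 starts could easily hold none. Other spacings were not searched. The composites and the core can overlap, since each ends in GAAA. The NFAT core GGAAA matched before 2 of the 8 starts, against 55.6% of all promoters. A match is a description of letters, and these promoters were chosen with the genes.

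Itpr1 acts in signalling from the T cell receptor. Itpr1 (gene ID 16438, chromosome 6) encodes a receptor for inositol trisphosphate that releases calcium from the endoplasmic reticulum, the step that precedes NFAT activation. Its bright probe (A_51_P269663) read 256 and 162 in blockade cells, 403 and 645 in KO IgG cells, and 616 and 1017 in WT cells. As deposited, KO IgG array 2 thus lay above WT array 1, and the blockade arrays lay below all others. On the quantile scale the probe averaged 8.04 ± 0.09 in blockade cells, 8.63 ± 0.06 in KO IgG cells and 9.62 ± 0.18 in WT cells (log2, SD, n = 2 arrays each), with no overlap. The log2 difference from WT was -1.58 in blockade cells and -0.99 in KO IgG cells.

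Adap1 (gene ID 231821, chromosome 5) encodes a GTPase-activating protein for ARF6 that binds the lipid PIP3. Its only probe (A_55_P2074636) read 686 and 415 in blockade cells, 522 and 1006 in KO IgG cells, and 2394 and 3435 in WT cells. Both groups labelled KO lay well below WT and overlapped each other. The quantile means were 9.37 ± 0.22 in blockade cells, 9.18 ± 0.26 in KO IgG cells and 11.41 ± 0.09 in WT cells, and the log2 difference from WT was -2.03 in blockade cells and -2.23 in KO IgG cells.

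Myo1f (gene ID 17916, chromosome 17) encodes a class I myosin of blood cells, known in mice for the adhesion and movement of neutrophils. Its probe (A_66_P112305) read 227 and 121 in blockade cells, 168 and 534 in KO IgG cells, and 1056 and 1455 in WT cells. The KO IgG arrays were the least alike here. The higher of them was array 2, as it was before scaling for the bright probes of all 8 genes that had one. On the quantile scale Myo1f averaged 7.77 ± 0.21 in blockade cells, 7.82 ± 0.77 in KO IgG cells and 10.24 ± 0.02 in WT cells. The log2 difference from WT was -2.46 in blockade cells and -2.42 in KO IgG cells.

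Eya2 (gene ID 14049, chromosome 2) encodes a coactivator of homeobox transcription factors that is also a phosphatase. Its bright probe (A_55_P2141093) read 154 and 86.1 in blockade cells, 242 and 616 in KO IgG cells, and 758 and 1105 in WT cells. The 3 groups stood in that order without overlap. The quantile means were 7.20 ± 0.0048 in blockade cells, 8.21 ± 0.55 in KO IgG cells and 9.82 ± 0.07 in WT cells, and the log2 difference from WT was -2.62 in blockade cells and -1.61 in KO IgG cells.

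Among the enzymes, Cyp2s1 (gene ID 74134, chromosome 7) encodes a cytochrome P450, a haem enzyme that oxidises small lipophilic molecules. Its probe (A_55_P1966749) read 140 and 80.3 in blockade cells, 196 and 319 in KO IgG cells, and 978 and 979 in WT cells. No group overlapped another. On the quantile scale it averaged 7.03 ± 0.02 in blockade cells, 7.50 ± 0.01 in KO IgG cells and 9.90 ± 0.31 in WT cells, which gave a log2 difference from WT of -2.88 in blockade cells and -2.40 in KO IgG cells.

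Glrx (gene ID 93692, chromosome 13) encodes glutaredoxin 1, which removes glutathione from protein thiols and so reverses an oxidative modification. Its probe (A_51_P210395) read 578 and 458 in blockade cells, 345 and 540 in KO IgG cells, and 1442 and 1197 in WT cells. As deposited the 2 groups labelled KO overlapped, and both lay below WT. On the quantile scale the groups separated, with 9.32 ± 0.04 in blockade cells, 8.37 ± 0.01 in KO IgG cells and 10.31 ± 0.47 in WT cells. The log2 difference from WT was -0.99 in blockade cells and -1.95 in KO IgG cells.

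Man2a2 (gene ID 140481, chromosome 7) encodes a Golgi alpha-mannosidase that trims N-glycans on their way to complex forms. Its bright probe (A_52_P287219) read 324 and 253 in blockade cells, 457 and 929 in KO IgG cells, and 838 and 1377 in WT cells. As with Itpr1, KO IgG array 2 lay above WT array 1 before scaling. The quantile means were 8.51 ± 0.06 in blockade cells, 9.02 ± 0.32 in KO IgG cells and 10.04 ± 0.18 in WT cells, and the log2 difference from WT was -1.53 in blockade cells and -1.03 in KO IgG cells.

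Adam19 (gene ID 11492, chromosome 11) encodes a membrane metalloprotease that sheds the outer domains of other membrane proteins. Its probe (A_55_P1983095) read 742 and 581 in blockade cells, 589 and 792 in KO IgG cells, and 1319 and 2190 in WT cells. Again the groups labelled KO overlapped as deposited, and both lay below WT. It averaged 9.67 ± 0.03 in blockade cells, 9.08 ± 0.13 in KO IgG cells and 10.69 ± 0.22 in WT cells on the quantile scale, with a log2 difference from WT of -1.02 in blockade cells and -1.61 in KO IgG cells.

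**Figure D1:**
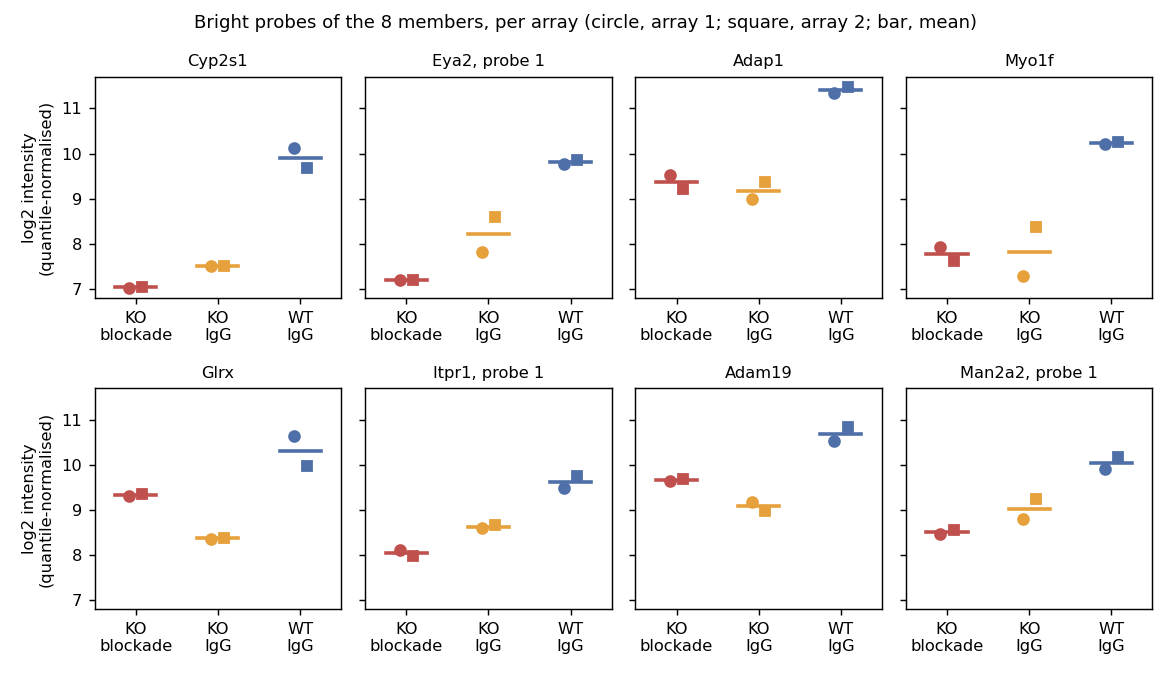
Quantile-normalised log2 intensity (y axis) of the bright probe of each of 8 genes on the 2 arrays of each group (x axis: blockade and IgG in cells labelled Irf4 KO, then WT with IgG); circles are array 1, squares array 2 and bars the mean. All WT points lie above all points of cells labelled KO in each panel, which is how the genes were chosen, while blockade lies below KO IgG without overlap for Cyp2s1, Eya2, Itpr1 and Man2a2 and above it for Glrx and Adam19.

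Tmprss13 (gene ID 214531, chromosome 9) encodes a membrane serine protease known from epithelia. Its only probe (A_55_P2177998) read 3.4 and 4.6 in blockade cells, 37.8 and 17.7 in KO IgG cells, and 890 and 1421 in WT cells. It was well above background on both WT arrays, on KO IgG array 1 and on no other array. The KO IgG readings stood beside weak-probe medians of 15.3 and 26.6 on the same arrays, with 90th percentiles of 84.4 and 166. Its mean log2 intensity of 5.60 put it under the bright-probe floor, so it is described on a scale in which each array's 75th percentile was subtracted from the log2 intensity, among 34988 probes well above background on both arrays of a group. There the fitted log2 difference for KO IgG minus WT was -6.64, and it spanned -9.02 to -3.85 over the other settings; with 1 of 2 KO IgG arrays above background it is not a measured size. Since the blockade readings were not well above background, that fold is a bound: Tmprss13 was at least 52.5-fold lower in blockade cells than in WT cells, taking the lowest signal among probes well above background as the blockade level where that was higher. In sorted cells in bulk, fewer cells that express a gene and less RNA per cell cannot be told apart.

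The other 5 probes were all under the floor. The second Eya2 probe (A_51_P334209) read 14.9 and 6.8 in blockade cells, 85.8 and 71.1 in KO IgG cells, and 80.0 and 106 in WT cells, and was not well above background on the blockade arrays. Its KO IgG values overlapped WT as deposited, and it was at least 4.20-fold lower in blockade cells than in WT cells. The second Itpr1 probe (A_55_P2932328) read 33.4 and 18.3 in blockade cells, 163 and 76.1 in KO IgG cells, and 62.6 and 109 in WT cells. The third (A_55_P2745593) read 24.2 and 24.7 in blockade cells, 126 and 94.9 in KO IgG cells, and 78.4 and 74.9 in WT cells. Both dim Itpr1 probes were thus lowest in blockade cells. Before scaling, their KO IgG values overlapped or exceeded WT, and those of the bright Itpr1 probe overlapped WT too. On the 75th percentile scale the log2 difference of the dim probes for KO IgG minus WT was -0.77 and -0.69, against -1.84 for the bright probe. On that scale the median KO IgG minus WT difference was -1.04 over bright probes and -0.08 over all 34988 probes. From the lowest, the dim probes ranked only 10754 and 11762 of 34988 there. For blockade minus WT the log2 difference of the dim probes was -1.39 and -1.30, against -1.61 for the bright probe. The second probe was not well above background on blockade array 2.

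The second Man2a2 probe (A_55_P2848148) went against the first. It read 4.6 and 4.4 in blockade cells, 77.9 and 145 in KO IgG cells, and 4.4 and 3.8 in WT cells, and was well above background on the KO IgG arrays alone. Those KO IgG readings lay under the 90th percentile of weak probes on the same arrays, 84.4 and 166. The third (A_52_P531068) read 15.5 and 5.4 in blockade cells, 21.2 and 17.8 in KO IgG cells, and 4.4 and 9.5 in WT cells, was well above background on KO IgG array 1 only, and entered no fit. The description of Man2a2 as lower in cells labelled KO rests on its first probe. The probe nearest above the floor was that of Cyp2s1, with a mean log2 of 8.21, and the nearest below it was the second Itpr1 probe, with 5.93, well under the floor.

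**Figure D2:**
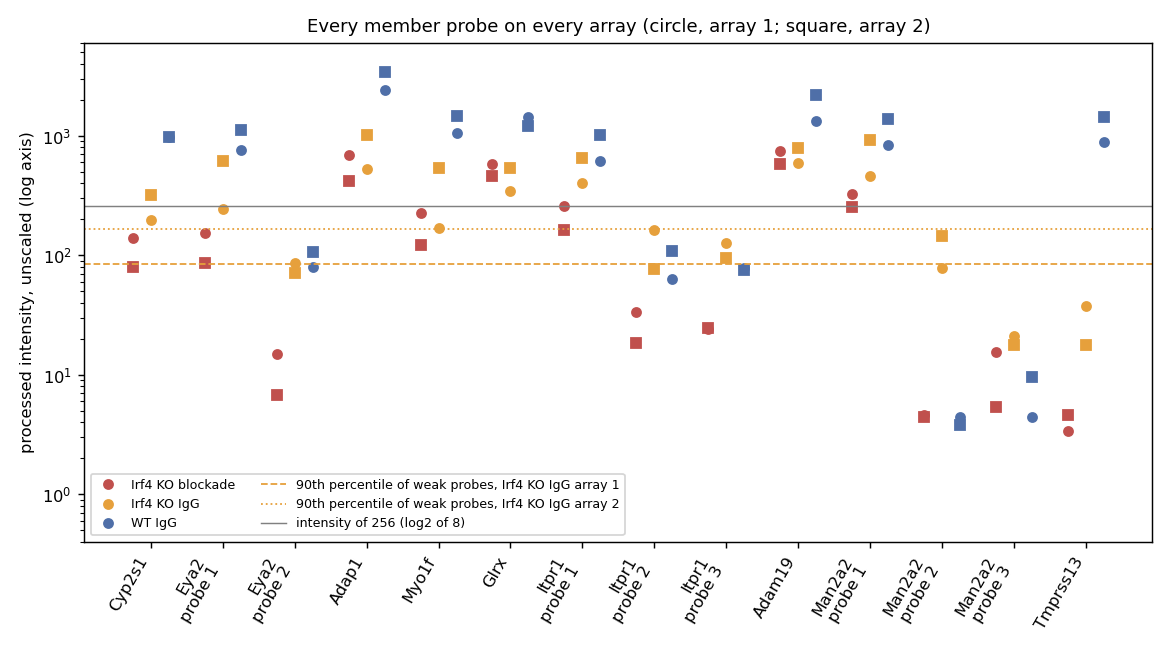
Processed intensity as deposited, on a log axis, of all 14 probes of the 9 genes (x axis) on the 6 arrays; colours are groups, circles array 1 and squares array 2. Horizontal lines mark an intensity of 256 and the 90th percentile of weak probes on the KO IgG arrays, 84.4 and 166. In KO IgG cells Tmprss13 and the dim Man2a2 probes read below the line of their own array. The dim Eya2 and Itpr1 probes read above it on array 1 and below it on array 2.

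All 8 bright probes lay below WT in both groups labelled KO without overlap on the quantile scale, as the choice of genes required, and 12.4% of all bright probes did so. As deposited 6 of the 8 did, without Itpr1 and Man2a2, against 4.02% of all bright probes. The sizes differed between genes: from the lowest, the 8 probes ranked between 12 and 150 of 10225 for KO IgG minus WT, and between 8 and 162 for blockade minus WT. Cyp2s1, Adap1 and Myo1f were among the 21 lowest in both. Both contrasts share the WT arrays, so their values for a gene are not independent. The bright probes of Cyp2s1, Eya2 and Myo1f averaged under 8 over the 4 arrays labelled KO and reached the floor through the WT arrays. For comparison, the test passed 0.724% of bright probes for blockade minus WT (45 higher, 29 lower) and 2.41% for KO IgG minus WT (144 higher, 102 lower).

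The comparison that did not choose the genes is blockade against IgG in cells labelled Irf4 KO. It asks whether the antibodies moved these genes. The probes of Cyp2s1, Eya2 and Myo1f entered it through the WT arrays, so their estimates and tests below are of low readings. None of the 8 bright probes passed (limma, Benjamini-Hochberg adjusted p of at least 0.0793), against 0.9% of all bright probes (45 higher, 47 lower of 10225). At an unadjusted p under 0.05 there were 6 of 8, and 28.6% of all bright probes. The estimates ran in both directions. Blockade lay below KO IgG without overlap for 4 probes, against 28.3% of bright probes, and above it for 2, against 34%. The other 2 overlapped.

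Glrx and Adam19 were on the higher side. In Glrx, blockade minus KO IgG was 0.96 on the log2 scale, with a 95% interval of 0.41 to 1.51 (adjusted p = 0.0793). For Adam19 it was 0.59, with an interval of 0.21 to 0.97 (adjusted p = 0.0897). Both genes were thus nearer to WT with blockade than with IgG on this scale, but below it still. As deposited the groups overlapped for both, and on the 75th percentile scale both passed (1.80 and 1.49, adjusted p = 0.00971 and 0.00946), as did Adap1 (1.11, adjusted p = 0.0153). Bright probes as a whole had a median blockade minus KO IgG difference of 1.09 on that scale, against 0.03 on the quantile scale, and 56.7% of the 34988 probes passed there.

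On the lower side were Eya2, Itpr1, Man2a2 and Cyp2s1. Eya2 differed most, with a log2 difference of -1.01 and an interval of -1.64 to -0.38 (adjusted p = 0.0862), and its KO IgG arrays differed more than those of any gene of the 8 but Myo1f. Itpr1 differed by -0.59, with an interval of -0.93 to -0.25 (adjusted p = 0.0793). For Man2a2 the difference was -0.51 (interval -0.97 to -0.05, adjusted p = 0.151) and for Cyp2s1 -0.47 (interval -0.88 to -0.06, adjusted p = 0.14). On the 75th percentile scale Itpr1, Man2a2 and Cyp2s1 turned to 0.23, 0.36 and 0.31 and Eya2 shrank to -0.19, none of which passed. Eya2 passed as lower in 3 of 18 other settings and Itpr1 in 2 of 18, whereas with array median scaling all 8 bright probes passed as higher.

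Adap1 and Myo1f had intervals that spanned 0. For Adap1 the log2 difference was 0.20, with an interval of -0.25 to 0.64 (adjusted p = 0.5). For Myo1f it was -0.05, with an interval of -0.91 to 0.82 (adjusted p = 0.942). The Myo1f interval was the widest of the 8, and changes within it were not resolved with 2 arrays a group.

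**Figure D3:**
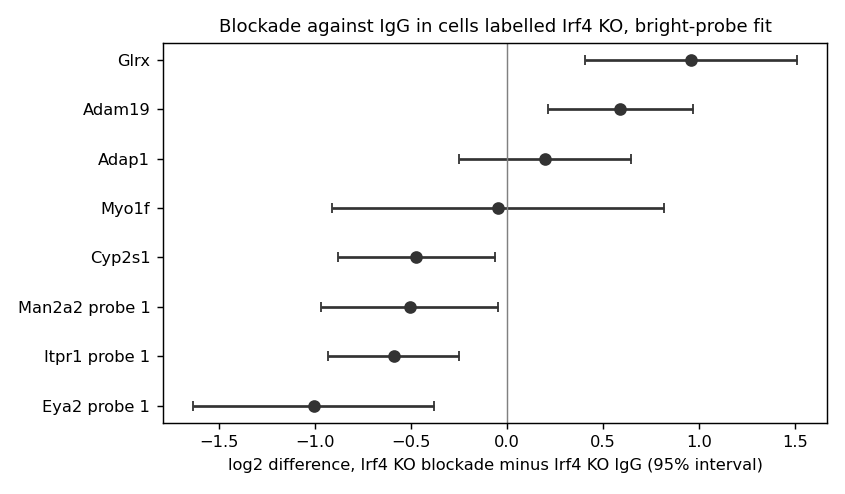
Log2 difference of blockade minus IgG in cells labelled Irf4 KO (x axis; points are estimates and bars 95% intervals from the fit over 10225 bright probes) for the bright probe of each of 8 genes. Glrx and Adam19 lie above 0, Eya2, Itpr1, Man2a2 and Cyp2s1 below it, and no gene passed the adjusted threshold of 0.05.

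Dim probes were tested on the 75th percentile scale, on which 56.7% of probes passed. The second Eya2 probe passed as lower with blockade, at least 1.55-fold (limma, adjusted p = 0.0369). Its KO IgG readings of 85.8 and 71.1 stood beside 90th percentiles of weak probes of 84.4 and 166 on the same arrays. The second Man2a2 probe entered that fit only through the KO IgG arrays, where it was high, so no test is given for it. The Eya2 call was lost in 8 of 14 other settings and turned in 2. Subtracting the weak-probe level was among the settings that lost it (log2 difference -1.95, limma, adjusted p = 0.0967). The dim Itpr1 probes did not pass (log2 difference -0.62 and -0.61, adjusted p = 0.42 and 0.298), with the first of them above background on 1 of 2 blockade arrays. Tmprss13 entered that fit only through the WT arrays, where it was chosen to be high. Of the arrays compared here it was well above background on KO IgG array 1 alone, so neither a test nor a fold is given for it.

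Genes that act beside the 9 were taken from 9 lists, one built around each, with 149 genes, of which 80 had a bright probe. In blockade minus KO IgG 0 of 80 passed (limma), with 28 at an unadjusted p under 0.05, against 2925 of all 10225 bright probes. In KO IgG minus WT 0 of 80 passed, with 20 at that level, against 2387 of 10225. In blockade minus WT 1 of 80 passed (1.25%), with 27 at that level, against 1943 of 10225. The gene that passed was Nfatc2, which encodes an NFAT factor that calcium signals bring to the nucleus. Nfatc2 read 1334 and 1172 in blockade cells, 2011 and 2937 in KO IgG cells, and 2936 and 5029 in WT cells. Its log2 difference was -1.28 ± 0.16 (SE) for blockade minus WT (limma, adjusted p = 0.0442), a call lost in 11 of 19 other settings.

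The calcium list had a median of -0.42 over 15 genes for blockade minus WT and 0.03 for KO IgG minus WT, against medians of 0.0006 and -0.02 over all bright probes. The relatives named from here on were chosen after their values were seen, and none of them passed. Among the other IP3 receptors, Itpr2 differed from WT by -0.93 in blockade cells and 0.11 in KO IgG cells, and Itpr3 by -0.71 and 0.21. In the N-glycan list of 12 genes the medians were -0.27 for blockade minus WT and -0.12 for KO IgG minus WT. Man2a1, the mannosidase that does the same step as Man2a2, differed by -0.78 in blockade cells and -0.64 in KO IgG cells (adjusted p = 0.118 and 0.13).

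The myosin list (5 genes) had a median of -0.58 for blockade minus WT and 0.21 for KO IgG minus WT. Myo1g, the class I myosin of lymphocytes, differed from WT by -0.24 in blockade cells and -0.04 in KO IgG cells. Over 15 genes of the ARF6 and PIP3 list the medians were -0.06 and 0.18. The thiol redox list (20 genes) had medians of 0.0049 and -0.01, and the other glutaredoxins Glrx2, Glrx3 and Glrx5 differed from WT by -0.40, 0.27 and 0.03 in blockade cells and by 0.26, -0.02 and 0.0047 in KO IgG cells. For the ADAM list (4 genes) the medians were -0.37 and -0.16. Adam10 and Adam17, the main sheddases of T cells, differed by -0.08 and -0.30 in blockade cells and by 0.07 and -0.38 in KO IgG cells. The P450, Eya and serine protease lists had 5, 2 and 2 bright genes and medians between -0.25 and 0.20 in both comparisons. Only the members were chosen for being low, so their place below these relatives is a matter of that choice. For blockade minus KO IgG the median over all bright probes was 0.03. The list medians were -0.36 (ARF6 and PIP3, 0 of 15 genes above 0), -0.35 (calcium, 3 of 15) and -0.31 (myosin, 0 of 5). They were -0.16 (N-glycan, 4 of 12), -0.49 (ADAM, 1 of 4) and -0.42 (P450, 1 of 5). The other medians were 0.04 (thiol redox, 12 of 20), 0.01 (Eya, 1 of 2) and 0.45 (serine protease, 2 of 2).

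**Figure D4:**
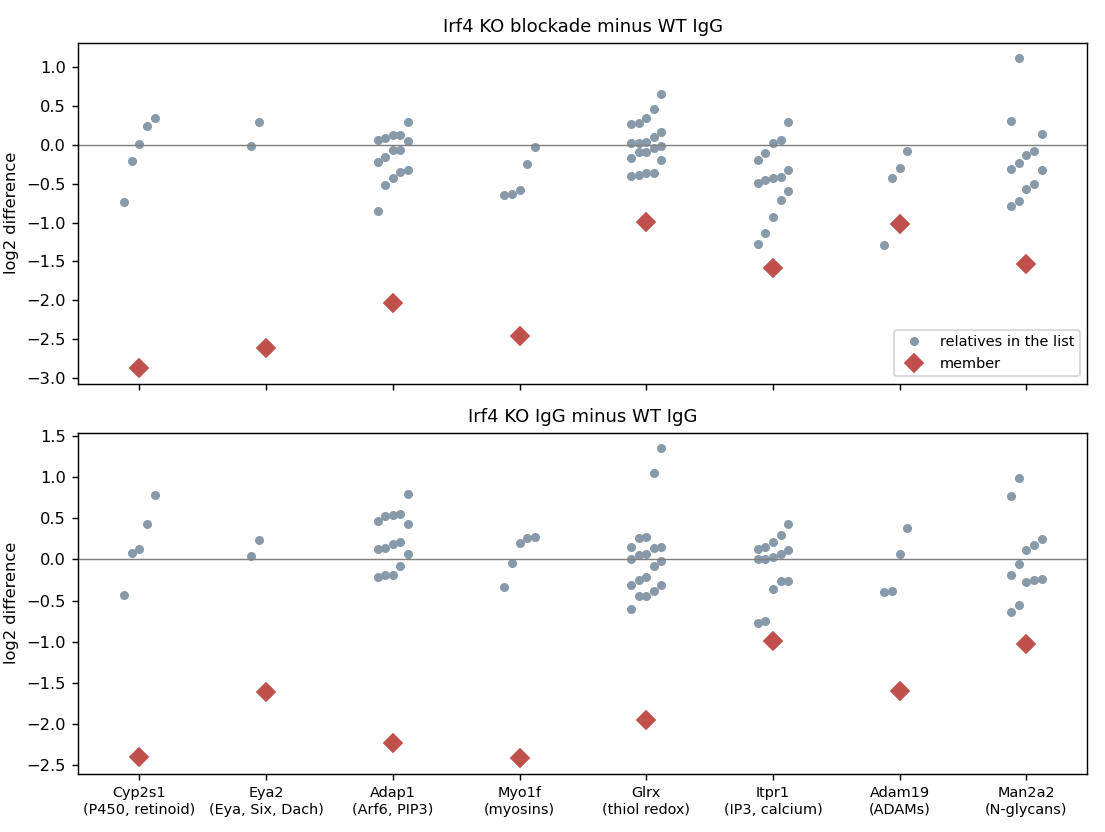
Log2 difference from WT (y axis) of 8 of the genes (red diamonds) and of the bright genes in the list built around each (grey points), for blockade (top) and IgG (bottom) in cells labelled Irf4 KO. The members were chosen for low values here; Nfatc2, at -1.28 beside Itpr1 in the top panel, is the one relative that passed the test.

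For each bright probe, the genes with the most similar pattern over the 6 arrays were found among 6707 other named genes, by the root mean square difference between probes centred on their own mean (quantile log2). Some of the 8 were near each other, and all were chosen for being highest in WT. For Adap1 the nearest was Myo1f, at 0.27, and for Cyp2s1 the nearest were Myo1f, Adap1 and Eya2, at 0.40 to 0.42. Myo1f had Adap1, Ccl5 and Cyp2s1. For Itpr1 they were Runx3, at 0.07, Iffo2, at 0.10, and Man2a2, at 0.13, and Itpr1 and Runx3 followed Nbeal2 for Man2a2.

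Eya2 lay nearest to Ccl5, Cxcr5 and Plac8, at 0.33 to 0.36. Luzp1 and Akap12 came next after Myo1f for Adap1, at 0.33 and 0.34. Adam19 lay nearest to P2rx7, Evi2a and Tnf, at 0.19 to 0.23, and Tcstv3 and Gm23952 were among the nearest to Glrx, at 0.295 and 0.333. The 6 arrays form only 3 groups, so many genes share such patterns, and the likeness is a description of these arrays.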

How the data were processed

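Per the labels' protocols, 0.5 µg of total RNA per sample was labelled with Cy3. The deposited scanner files hold a processed intensity per spot, which the authors obtained with Agilent Feature Extraction, version 11.0.1.1 per the file headers and 9.1 per the submitters' processing notes; it is background-subtracted and not scaled between arrays. In the deposited value table this intensity is divided by a constant per array. Each array held 56605 probes; 1234 were dropped because at least 1 array had no usable spot for them, and no spot was saturated. Log2 intensity was averaged over spots. RefSeq accessions named 32286 of 55371 probes; the headers name another build than the reference table, so no probe positions are given.

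The bright-probe fit used limma 3.58.1 in R 4.3.3 (lmFit, eBayes, 3 groups of 2 arrays, 3 residual degrees of freedom) on 10225 quantile-normalised probes with a mean log2 of at least 8, with Benjamini-Hochberg adjustment over all of them and a threshold of 0.05. Dim probes were fitted after 75th percentile scaling over 34988 probes. The fit was tested on simulated data. With 2 arrays a group, the number of arrays limits the precision. The genes, lists, motifs and tests were chosen with earlier results of these data known. Named are all probes of the 9 genes, Irf4, list genes past the threshold (at most 3 a list) and the 3 nearest genes of each bright probe; others are said to be outside this, and 1 gene that the rule names is not reported here. The alternative with normexp used median spot signals, since mean signals were not among the columns. Labels give no pairing of arrays, and deviations from group means correlated between arrays of a number by 0.05 (blockade with KO IgG), -0.18 (blockade with WT) and 0.04 (KO IgG with WT), so arrays were not paired. This looked at array number only. Slide row 1 held blockade array 1, KO IgG array 2 and WT array 2, and row 2 held the others. The 75th percentile intensity was higher in row 1 in each group: 95.6 against 68.0 (blockade), 301 against 185.5 (KO IgG) and 119 against 88.6 (WT).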

Additional observations from a re-analysis of the deposited data

How the results depend on the processing

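Counts of probes past the threshold moved with the settings, and the cause was not tested. For blockade minus KO IgG the count of 92 became 19830 after 75th percentile scaling, 22450 after array median scaling, 243 with normexp, 27 with cyclic loess, 939 with the median of bright probes, 783 with no scaling, 17 with a minimum of 9, 60 with a replicate block, 0 with slide row as a block and 0 on the 4 arrays of the contrast. Leaving out 1 array gave 0 to 405: 43 without KO IgG array 1, 405 without KO IgG array 2, and 0 without either WT array or either blockade array. Where that count was 0, 1330 to 3058 probes had an unadjusted p under 0.05 (limma). For KO IgG minus WT the 246 became 19696 after 75th percentile scaling, 22968 after array median scaling, 429 with the median of bright probes and 90 with a minimum of 9. It became 68 with a replicate block, 94 with slide row as a block, 5 on the 4 arrays, and 5 to 151 without 1 array. For blockade minus WT the 74 became 0 after 75th percentile scaling (2795 at an unadjusted p under 0.05), 0 after array median scaling (3214), 160 with cyclic loess, 148 with the median of bright probes, 182 with no scaling, 27 with slide row as a block, 131 on the 4 arrays, and 0 to 128 without 1 array (0 without blockade array 1, with 1155 at an unadjusted p under 0.05). The share of calls that were higher was 48.9%, 58.5% and 60.8% in the 3 contrasts; it was 86.7% and 15.8% with the array median in the first 2, 66.3% and 46.0% with normexp, 8.56%, 86.1% and 26.4% with no scaling in all 3, and 66.35% with the median of bright probes in the first.
Among the 9 genes, blockade minus KO IgG changed sign as follows. With the 75th percentile it was 0.31 for Cyp2s1, 0.70 for Myo1f, 0.23 for Itpr1 and 0.36 for Man2a2. With the array median it was 2.10 for Cyp2s1, 1.60 and 0.38 for the Eya2 probes, 2.49 for Myo1f, 2.02, 1.17 and 1.18 for the Itpr1 probes, 2.15 for Man2a2 and 0.62 for Tmprss13. With normexp it was 0.054 for Cyp2s1, 0.088 for the second Eya2 probe, 0.15 for Myo1f and 0.0053 for Tmprss13. With no scaling it was -0.44 for Adap1 and -0.058 for Adam19. For Myo1f it was 0.078 with a minimum of 7 and -0.60 to 0.54 without 1 array, above 0 without KO IgG array 2 (0.54) and without blockade array 2 (0.094). For the second Itpr1 probe it was -1.52 to 0.28 without 1 array, above 0 without KO IgG array 1. Against WT, the dim Itpr1 probes in KO IgG cells turned to 0.43 and 0.51 with no scaling and the first of them spanned -1.67 to 0.13 without 1 array, above 0 without KO IgG array 2, and Irf4 in KO IgG cells turned to -1.28 with the array median (adjusted p = 0.00614). The replicate block changed no call of the 9 genes. Subtracting the weak-probe level, chosen after seeing the data, left 90, 238 and 74 calls in the 3 contrasts. Depth here is signal over background, which leaves Tmprss13, the dim Eya2 probe and 2 Man2a2 probes without a measured level in blockade cells.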
